A study of Mus musculus with 3 samples.

Results

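The genes described here carry glucose into the cell, break it down to pyruvate and lactate, and respond to low oxygen. They were taken from a named list of 31 genes, of which 29 were among the 18193 genes that the array's annotation gave on a probe set of their own. They had 62 of the 34945 such probe sets, and each gene is given by its brightest probe set unless others are named. Ero1l is listed under its present symbol, Ero1a, and Gpi1 and Eno1 were not analysed here.

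Glycolysis splits glucose into pyruvate and yields ATP without oxygen. Hexokinase and phosphofructokinase are its main control points, and lactate dehydrogenase turns pyruvate to lactate, which leaves the cell through monocarboxylate transporters. Dendritic cells are known to raise glycolysis soon after a Toll-like receptor is engaged. The hypoxia-inducible factor Hif1a drives many genes of glycolysis. Its protein is marked for breakdown by the prolyl hydroxylases encoded by Egln1 and Egln3, which are targets of the same factor, so its level is set largely after transcription.

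The cells were mouse bone marrow-derived dendritic cells (BMDCs), grown for 10 days with GM-CSF at 10 ng/ml and measured on 3 Affymetrix Mouse 430 2.0 arrays, 1 per condition. One culture was left unstimulated, another received lipopolysaccharide (LPS, a bacterial membrane component sensed by Tlr4) at 10 ng/ml for 3 h, and the remaining culture received the same LPS with 8-Br-cAMP, a cell-permeable analogue of cyclic AMP, at 100 µM for 3 h. The labels name no strain, sex or age, no time for the unstimulated culture, and no culture with 8-Br-cAMP alone. There were no replicates, so no test was possible, and every difference is between single arrays. The LPS array enters both the comparison with unstimulated cells and that with LPS+8-Br-cAMP, so a high or low reading on it moves the same gene's differences in opposite directions.

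The values are scaled probe set signals, and signals under a floor of 32.5 were set to it before log2 was taken. The array with 8-Br-cAMP was the dimmest as deposited, with a median of 19.8 against 33.4 with LPS and 42.6 unstimulated. All 15 dendritic cell markers were above the floor on each array. Their summed signal was 35131 in unstimulated cells, 42234 after LPS and 53551 after LPS+8-Br-cAMP. Bright genes weigh most in this sum, such as H2-Aa, at 8332 unstimulated and 13876 with LPS+8-Br-cAMP. The markers did not move together. With LPS+8-Br-cAMP 9 were higher and 6 lower than with LPS (median log2 difference 0.14). Itgax read 1518 unstimulated, 1347 after LPS and 1165 after LPS+8-Br-cAMP. The cultures also differed in other ways. Xist, which marks female cells, read 1716 with LPS+8-Br-cAMP and fell short of the floor elsewhere. The Y-linked Eif2s3y read 1.24 with LPS+8-Br-cAMP against 272 with LPS and 352 unstimulated. By these transcripts the LPS+8-Br-cAMP cells were female and the others male, so their donors differed. Sex and donor cannot be told apart from 8-Br-cAMP in any comparison with that array. Of the genes described here, Pgk1 and Pdk3 lie on the X chromosome. All 14 measured granulocyte markers were lower with LPS+8-Br-cAMP than with LPS (median log2 difference -1.54). At least 2-fold lower were 9 of the 14 markers, and 5.81% of all measured genes. Their summed signal was 24052 with LPS+8-Br-cAMP, 45843 with LPS and 43750 unstimulated, and each was above the floor on every array. The B and plasma cell markers summed to 424, 3230 and 5329 in the same order, with the immunoglobulin gene Ighm alone at 52.5, 1495 and 3086. Of these 9 markers, 6 were lower and 3 higher with LPS+8-Br-cAMP than with LPS (median -0.54). With LPS against unstimulated cells, all 8 measured B and plasma cell markers were lower (median -0.86, against -0.21 for all genes). At least 2-fold lower there were 3 of the 8, and 13.0% of all measured genes. In cultures measured in bulk, fewer cells of a type and less RNA per cell cannot be told apart.

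With LPS, the sugar transporter gene Slc2a6, the phosphofructokinase gene Pfkp and the lactate transporter gene Slc16a1 were clearly higher than in unstimulated cells, and all 3 hexokinase genes were moderately higher. With 8-Br-cAMP added, some genes of the hypoxia response (Egln3, P4ha2, P4ha1 and Ero1l) were lower than with LPS alone, as were Slc2a3 and Hk3. Slc16a1 and Pfkm were higher. Other genes of the hypoxia response went both ways, and Hif1a was higher except in the signals as deposited. Tpi1 (0.64) and Pgk1 (0.50) were moderately higher with 8-Br-cAMP by their brightest probe sets, though not by all probe sets and not as deposited. The other common enzymes of the lower pathway differed little in either comparison.

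A gene counted as measured where 1 of the arrays compared, or both, exceeded the floor. Of 28 genes measured with LPS against unstimulated cells, 3 were at least 2-fold higher with LPS (10.7%, where 6.64% of 12283 measured genes were) and 2 were at least 2-fold lower (7.14%, where 13.0% of all were). The 2 lower genes, Pfkm and Pfkfb4, lay at the threshold. The median log2 difference of the 28 genes was 0.18, and that of all measured genes was -0.21. The sign of the genes' median turned to -0.018 under quantile normalization and -0.16 when the hybridisation spikes set the scale.

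Of 29 genes measured with LPS+8-Br-cAMP against LPS, 6 were at least 2-fold lower (20.7%, where 5.81% of 12572 measured genes were) and 2 were at least 2-fold higher (6.90%, where 6.49% of all were). The median of the 29 genes was -0.24 and that of all measured genes 0.049. Only probe sets of the plain _at kind gave a median of 0.050 over 23 genes, with 6 genes at least 2-fold lower there too. Among the 17 genes with more than 1 measured probe set, all probe sets went the same way in 13. The scatter between the brightest pair of probe sets of a gene, expressed as the SD of 1 probe set's log2 difference, was 0.53 over 5285 genes here and 0.49 over 5320 genes for LPS against unstimulated. It describes the arrays, not the spread between cultures.

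**Figure D1:**
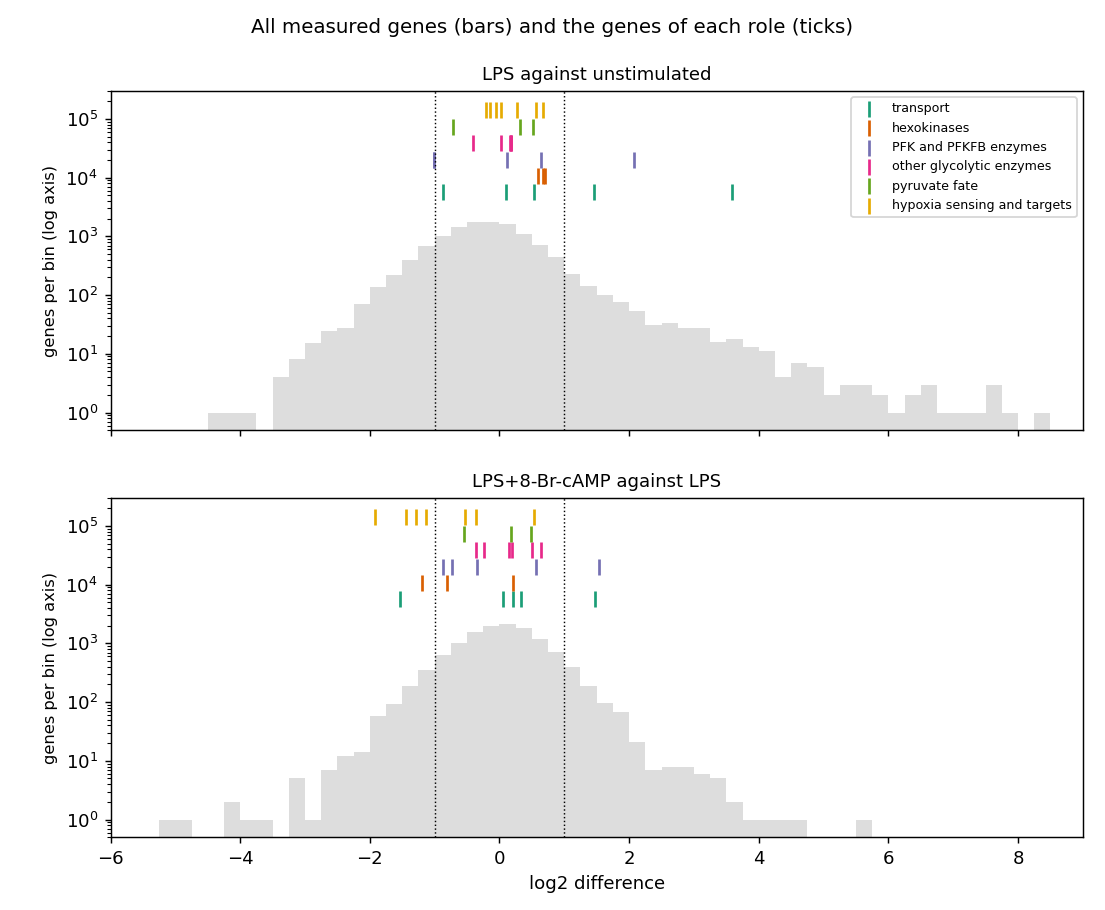
Log2 differences of all measured genes (grey bars, genes per bin, log axis) with the genes of each role as ticks, for the LPS comparison with unstimulated cells (top) and the 8-Br-cAMP comparison with LPS (bottom). Dotted lines mark 2-fold. Slc2a6 lies far right at 3.59 in the top panel, and 4 of the 7 hypoxia genes lie left of the 2-fold line in the bottom panel.

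Slc2a6 encodes a sugar transporter of the lysosomal membrane. Its signal was 55.4 in unstimulated cells, 669 after LPS and 841 after LPS+8-Br-cAMP. It was low only in the unstimulated culture, 12.1-fold below LPS (log2 difference 3.59), and 99.4% of measured genes had a smaller difference. The 2 stimulated arrays differed by 0.33, less than the scatter of 1 probe set, and by -0.48 with the signals as deposited. A floor at the 75th percentile lies above the unstimulated signal and gave only a lower bound for the LPS difference, 2.62.

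Slc2a1 encodes the widespread glucose transporter GLUT1. Its brightest probe set read 1755 unstimulated, 2527 after LPS and 2917 after LPS+8-Br-cAMP, and the LPS difference was 0.53. All 3 of its probe sets were higher with LPS, by 0.38 to 0.69, and higher again with 8-Br-cAMP, by 0.071 to 0.73, though the brightest was lower by 0.60 in the signals as deposited. Slc2a3 encodes the high-affinity transporter GLUT3 and went the other way. It read 658 unstimulated, 359 after LPS and 124 after LPS+8-Br-cAMP, lowest on the last array. The difference was -0.88 with LPS alone and -1.53 once 8-Br-cAMP was added. Its other 3 probe sets gave -0.89, -0.23 and 0.24 for LPS. All 4 Slc2a3 probe sets were lower with 8-Br-cAMP than with LPS, but their differences ran from -1.53 to -0.20, and the next brightest gave -0.20. The dimmer 2 were under the floor on the last array, so their differences are lower bounds.

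The lactate transporter genes parted as well. Slc16a1 encodes MCT1, which carries lactate and pyruvate across the plasma membrane. Its signal was 172 unstimulated, 472 after LPS and 1314 after LPS+8-Br-cAMP. It stood higher on each stimulated array than on the one before, by 1.45 for LPS and by a further 1.48 for LPS+8-Br-cAMP against LPS, which is 7.62-fold from the unstimulated to the last array. The difference between LPS+8-Br-cAMP and LPS stayed between 0.67 and 1.61 over the 6 scalings. The other Slc16a1 probe set was under the floor on all arrays and gave no value. Slc16a3, the gene of the lactate exporter MCT4, read 401, 430 and 445 in the same order, level on all arrays.

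**Figure D2:**
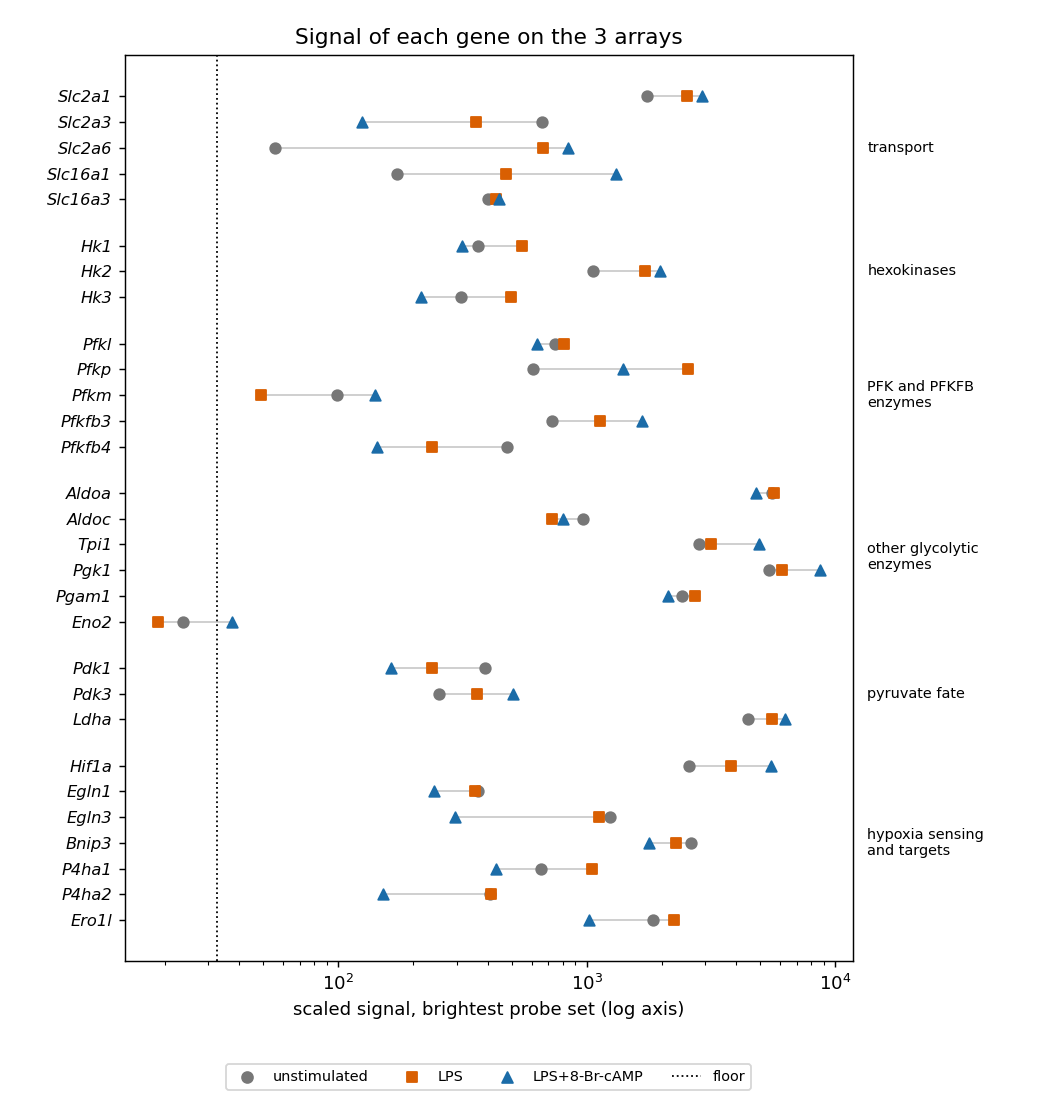
Scaled signal of the brightest probe set of each gene (log axis) on the unstimulated (circle), LPS (square) and LPS+8-Br-cAMP (triangle) arrays, by role, with the floor of 32.5 dotted. Slc2a6 is low only without LPS, Slc16a1 steps up from 172 to 472 to 1314, and Egln3 is low only with 8-Br-cAMP.

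Hexokinases trap glucose in the cell by phosphorylating it. All 3 hexokinase genes were higher with LPS by similar amounts, 0.59 for Hk1, 0.70 for Hk2 and 0.67 for Hk3, and they kept that direction under all 6 scalings. The other probe sets of Hk1 and Hk3 gave 0.58 and 0.55. With 8-Br-cAMP they separated. Hk2, the inducible hexokinase, read 1056, 1711 and 1979 from unstimulated to LPS to LPS+8-Br-cAMP and was little apart between the stimulated arrays, at 0.21 (-0.60 as deposited). Hk1, the housekeeping form, read 366, 551 and 314, so that it was back near the unstimulated signal on the last array. Its difference from LPS was -0.81 by the brightest probe set and -1.20 by the other. Hk3, a form typical of myeloid cells, read 311, 493 and 216 and was lowest on the last array. Its difference was -1.19 by the brightest probe set and -1.46 by the other, and the granulocyte markers were also lower on that array (median -1.54). Their part in the Hk3 and Hk1 differences was not tested. The log2 differences of Hk2 and Hk3 with 8-Br-cAMP were 1.40 apart, against a scatter of 0.74 for the gap between 2 genes.

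Phosphofructokinase commits the sugar to glycolysis, and its subunit genes also differed. Pfkp, the platelet-type subunit, read 605 unstimulated, 2544 after LPS and 1393 after LPS+8-Br-cAMP. It was highest with LPS, 4.20-fold above unstimulated cells (2.07), and its 3 probe sets gave 1.77 to 2.07, the lowest a lower bound since its unstimulated signal was under the floor. With 8-Br-cAMP it was lower than with LPS by all 3 probe sets, at -0.87 by the brightest and -1.29 to -0.78 in all, yet still 1.20 above the unstimulated array. Pfkl, the liver-type subunit, read 743, 807 and 632, nearly level by its brightest probe set. Its 3 probe sets disagreed for LPS+8-Br-cAMP against LPS, at -0.35, -0.62 and 0.44, the last from a dim one. Pfkm, the muscle-type subunit, was dim at 98.4, 48.7 and 141, lowest with LPS. Its difference from LPS to LPS+8-Br-cAMP was 1.53 from a single probe set. A floor at the 75th percentile lies above its LPS signal and gave only a lower bound, 0.37.

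Fructose 2,6-bisphosphate switches phosphofructokinase on, and the Pfkfb genes encode the enzymes that make and remove it. Pfkfb3, whose enzyme strongly favours its synthesis, read 725, 1133 and 1672 from unstimulated to LPS to LPS+8-Br-cAMP. It was highest on the last array, 0.64 higher with LPS than without and 0.56 higher with 8-Br-cAMP than with LPS (-0.25 as deposited), and its other probe set gave 0.81 and 0.35. Pfkfb4 read 479, 238 and 143, lowest on the last array. Its differences were -1.01 and -0.73, and -1.74 between the last array and the unstimulated one. The gap between Pfkfb3 and Pfkfb4 was 1.65 for LPS and 1.29 for 8-Br-cAMP, against scatters of 0.70 and 0.74 for the gap between 2 genes.

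The remaining enzymes of glycolysis were within 2-fold as scaled here wherever they had a value, and most were close to level. Aldoa (aldolase A) read 5558, 5657 and 4796 in the same order. Of its 5 probe sets, 4 were lower and 1 higher with LPS+8-Br-cAMP than with LPS, from -0.45 to 0.51. Tpi1 (triosephosphate isomerase) read 2825, 3172 and 4936, and Pgk1 (phosphoglycerate kinase) 5410, 6130 and 8658, both highest with LPS+8-Br-cAMP. These gaps from LPS, 0.64 for Tpi1 and 0.50 for Pgk1, were not shared by all probe sets: the lowest gave -0.15 for Tpi1 and -0.030 for Pgk1. Pgam1 (phosphoglycerate mutase) read 2427, 2735 and 2126, and Aldoc, the brain-type aldolase, 966, 727 and 804. Eno2, the neuronal enolase, was above the floor only with LPS+8-Br-cAMP, at 37.4. With LPS+8-Br-cAMP, 0 of these 6 genes passed 2-fold against LPS, where 6.49% of all genes were that far up and 5.81% down. Against unstimulated cells 0 of the 6 did so, beside 9.36% up and 15.8% down. Eno2 had no value for LPS against unstimulated cells, and 0 of the other 5 passed 2-fold there (6.64% up and 13.0% down for all genes). Whether so few genes depart from these shares was not tested. The signs of the LPS differences of Aldoa, Tpi1, Pgk1 and Pgam1 turned with the scaling.

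At the end of the pathway pyruvate is either turned to lactate or enters mitochondria. Ldha, the main lactate dehydrogenase subunit of glycolytic cells, read 4440 unstimulated, 5539 after LPS and 6298 after LPS+8-Br-cAMP, a narrow range whose LPS difference was 0.32 (-0.016 when spikes set the scale). Pyruvate dehydrogenase kinases hold pyruvate back from mitochondria, and their genes went opposite ways. Pdk1, a hypoxia target, read 389, 237 and 163, and Pdk3 read 253, 361 and 504. Pdk1 was highest and Pdk3 lowest in unstimulated cells, and the gap between their differences was -1.22 for LPS and -1.02 for 8-Br-cAMP. The brightest Pdk1 probe set gave -0.54 for LPS+8-Br-cAMP against LPS, while the other 3 were lower by more, from -2.35 to -1.03. Of those 3, 2 were under the floor on the last array, so their differences are lower bounds. By the mean over its probe sets Pdk1 differed by -1.28. For LPS against unstimulated its 4 probe sets lay close together, from -0.84 to -0.66.

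**Figure D3:**
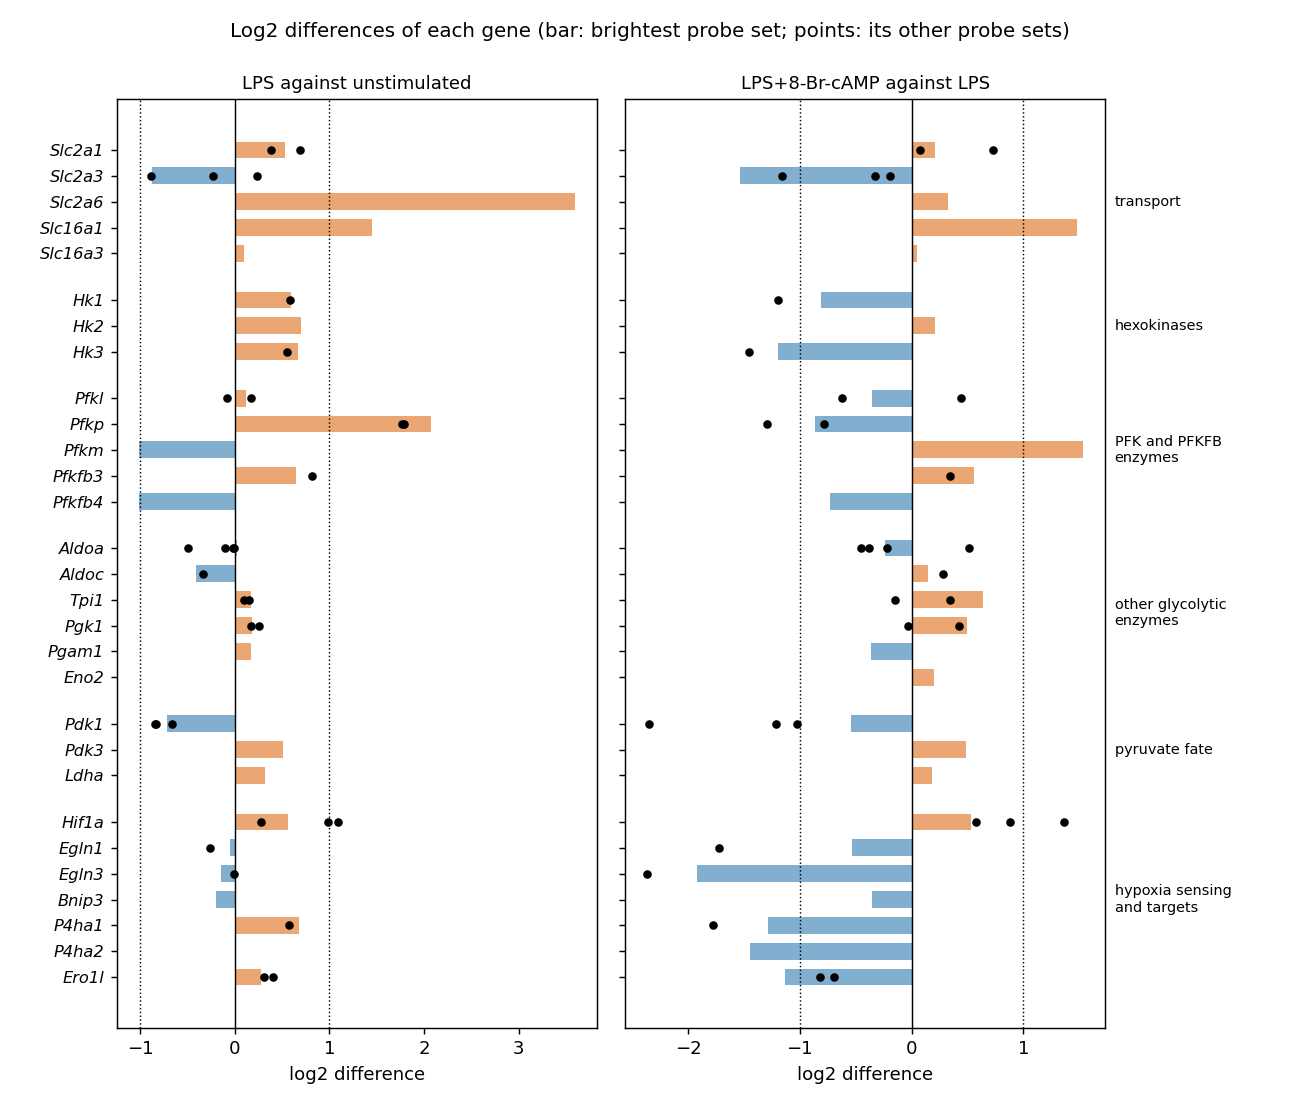
Log2 differences of each gene by its brightest probe set (bars) and by its other probe sets (points), for the LPS comparison with unstimulated cells (left) and the 8-Br-cAMP comparison with LPS (right), with 2-fold dotted. The hexokinase bars all point right on the left panel and split on the right, where Hk2 is at 0.21 (-0.60 as deposited) and Hk3 at -1.19, and the Pdk1 points reach -2.35 beyond its bar at -0.54.

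The 7 genes grouped here under oxygen sensing and hypoxia targets were mostly lower with 8-Br-cAMP. Of these 7, 4 were at least 2-fold lower than with LPS (5.81% of all measured genes were) and 0 higher (6.49% of all), with a median of -1.13. Glycolysis genes, many of which Hif1a drives, and the hypoxia target Pdk1 were grouped apart. Of the 6 other glycolytic enzymes measured, 4 were higher and 2 lower than with LPS (median 0.17). Other genes of the hypoxia response went both ways, with 4 of 20 at least 2-fold higher and 2 lower. With LPS alone 0 of the 7 grouped genes passed 2-fold in either direction, near the shares of all measured genes (6.64% higher and 13.0% lower). Their median was 0.017, against -0.21 for all genes. These differences and the lower granulocyte signals lie on the same array, and the part of cell makeup in them was not tested.

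Egln3 encodes a prolyl hydroxylase that marks Hif1a for destruction when oxygen is present. Its signal was 1239 unstimulated, 1121 after LPS and 295 after LPS+8-Br-cAMP. The first pair of cultures were close and the last was 3.79-fold below LPS (-1.92), a difference that 0.461% of measured genes fell below. The other Egln3 probe set read 283, 280 and 54.4 and gave -2.37. Egln1, the gene of the main oxygen-sensing hydroxylase, read 367, 354 and 244 by its brightest probe set, lowest on the same array. That difference was -0.54, and the other probe set, at 241, 200 and 60.4, gave -1.73. The Egln1 difference therefore depended on the probe set, and the Egln3 difference passed 2-fold by both.

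Collagen prolyl hydroxylases stabilise collagen in the endoplasmic reticulum, and P4ha1 and P4ha2 encode their catalytic subunits. P4ha1 read 654, 1046 and 430, highest with LPS and lowest with LPS+8-Br-cAMP. Its differences from LPS were -1.28 and -1.78 by its 2 probe sets. P4ha2 read 406, 411 and 151, level in the first 2 cultures and 2.72-fold lower in the last (-1.45, 1 probe set). Ero1l encodes an oxidase that supports disulfide formation in the endoplasmic reticulum. It read 1847, 2237 and 1022, and its 3 probe sets were all lower than with LPS, at -1.13, -0.82 and -0.69, of which only the brightest passed 2-fold. Its difference was -0.995 when spikes set the scale, while Egln3, P4ha1, P4ha2, Slc2a3 and Hk3 stayed past 2-fold under all 6 scalings.

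Hif1a itself was higher, not lower. Its brightest probe set read 2573 unstimulated, 3804 after LPS and 5496 after LPS+8-Br-cAMP and was highest on the last array. The differences were 0.56 for LPS and 0.53 for 8-Br-cAMP (-0.28 as deposited). All 4 Hif1a probe sets were higher with LPS, by 0.28 (a lower bound) to 1.09, and higher again with 8-Br-cAMP, by 0.53 to 1.36. These are transcript levels, and the Hif1a protein was not measured. Bnip3, a mitophagy receptor and hypoxia target, read 2630, 2287 and 1785, and its differences of -0.20 and -0.36 were within the scatter of 1 probe set.

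**Figure D4:**
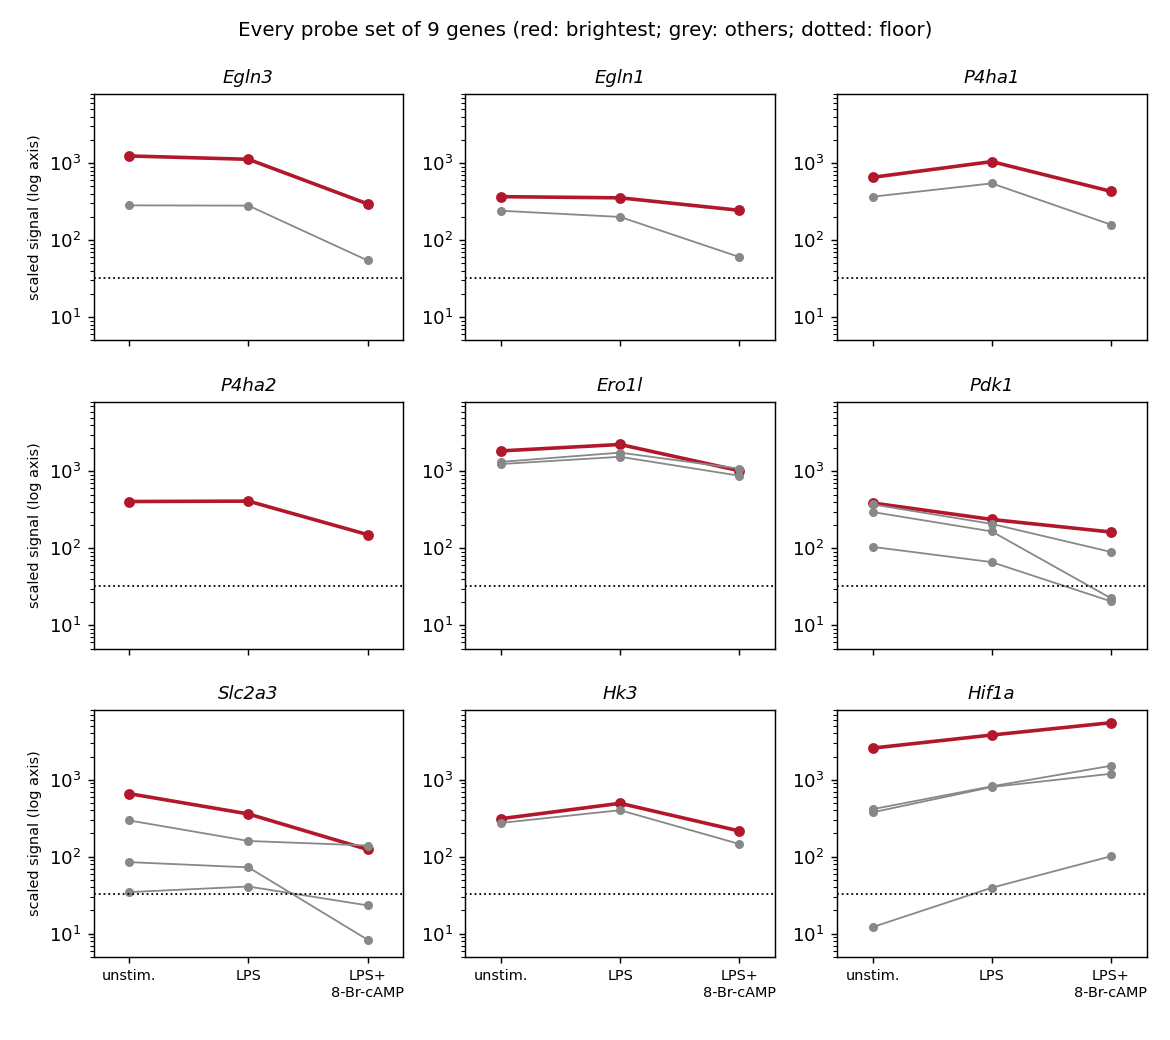
Scaled signal (log axis) of every probe set of Egln3, Egln1, P4ha1, P4ha2, Ero1l, Pdk1, Slc2a3, Hk3 and Hif1a on the 3 arrays, the brightest in red, the others in grey and the floor dotted. Both Egln3 lines drop only at LPS+8-Br-cAMP, to 295 and 54.4, the Pdk1 and Slc2a3 lines drop by unequal amounts, and all Hif1a lines are highest there.

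The promoters of the genes at least 2-fold apart between LPS+8-Br-cAMP and LPS that have 1 start in the RefSeq table are shown to set the genes that differed side by side (lower for Egln3, P4ha1, P4ha2, Ero1l and Hk3, higher for Slc16a1). Each is the 250 bases before the start, 5′ to 3′ on the gene's strand, in build GRCm38.p6. Capitals mark ACGTG and GCGTG, the cores of the hypoxia response element, on either strand. Pfkm, the other higher gene, has several starts and is not shown. The regions are chr12:54203875-54204124 (minus strand) for Egln3, chr10:59323046-59323295 (plus) for P4ha1, chr11:54100674-54100923 (plus) for P4ha2, chr14:45318573-45318822 (minus) for Ero1l, chr13:55021386-55021635 (minus) for Hk3 and chr3:104638414-104638663 (plus) for Slc16a1.
Egln3: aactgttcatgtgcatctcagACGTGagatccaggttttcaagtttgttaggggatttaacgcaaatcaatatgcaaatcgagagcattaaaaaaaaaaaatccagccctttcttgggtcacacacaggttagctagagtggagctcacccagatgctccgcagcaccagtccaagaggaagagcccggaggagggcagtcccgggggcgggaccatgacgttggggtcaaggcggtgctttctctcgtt
P4ha1: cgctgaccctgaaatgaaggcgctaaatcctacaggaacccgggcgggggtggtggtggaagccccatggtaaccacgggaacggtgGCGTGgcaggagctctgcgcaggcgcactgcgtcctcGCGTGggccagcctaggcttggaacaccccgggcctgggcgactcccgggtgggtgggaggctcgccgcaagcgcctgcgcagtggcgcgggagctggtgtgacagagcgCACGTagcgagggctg
P4ha2: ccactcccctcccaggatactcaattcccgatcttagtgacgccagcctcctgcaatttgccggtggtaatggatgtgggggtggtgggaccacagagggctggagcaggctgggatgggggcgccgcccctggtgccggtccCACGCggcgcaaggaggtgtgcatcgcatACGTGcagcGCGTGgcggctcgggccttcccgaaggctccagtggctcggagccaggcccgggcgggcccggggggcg
Ero1l: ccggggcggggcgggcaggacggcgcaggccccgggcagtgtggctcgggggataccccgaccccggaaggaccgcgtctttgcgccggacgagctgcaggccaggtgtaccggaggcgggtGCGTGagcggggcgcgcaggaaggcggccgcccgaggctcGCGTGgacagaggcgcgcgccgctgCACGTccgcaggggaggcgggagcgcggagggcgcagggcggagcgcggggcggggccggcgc
Hk3: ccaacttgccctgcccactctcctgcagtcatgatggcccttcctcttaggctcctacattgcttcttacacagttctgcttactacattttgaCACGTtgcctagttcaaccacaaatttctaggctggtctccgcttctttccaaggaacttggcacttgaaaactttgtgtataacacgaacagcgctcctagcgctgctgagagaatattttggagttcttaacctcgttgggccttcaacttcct
Slc16a1: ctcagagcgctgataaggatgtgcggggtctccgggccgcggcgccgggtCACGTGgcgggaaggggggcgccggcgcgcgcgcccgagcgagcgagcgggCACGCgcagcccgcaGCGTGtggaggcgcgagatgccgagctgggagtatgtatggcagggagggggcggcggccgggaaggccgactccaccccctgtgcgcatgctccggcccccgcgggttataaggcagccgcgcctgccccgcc

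P4ha1, P4ha2 and Ero1l each held 1 ACGTG and 2 GCGTG, and Egln3 and Hk3 each held 1 ACGTG. Slc16a1, the gene that was higher, held 2 GCGTG and 1 palindrome CACGTG, which counts as ACGTG on both strands, so the cores were in the promoters of genes that differed in either direction. Counting from the start, where -1 is the base just before it, the ACGTG began at -78 in P4ha2, at -16 in P4ha1 and at -229 in Egln3. TGACG, a short core of the cAMP response element, began at -34 in Egln3 and at -213 in P4ha2.

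Over the 28 genes with a promoter in the table, which had 38 starts, ACGTG or GCGTG was in 84.2% of the windows, against 38.6% of all 32851. These windows were richer in G and C, with a median of 62.8% and 14 CG pairs against 52.4% and 6 for all. Each core contains a CG pair, and the part of base composition was not tested. TGACG was in 23.7% of the windows against 17.8% of all, and the full element TGACGTCA in 1, of Ldha, or 2.63% against 1.55%. A match to the kappaB consensus was in 10.5% against 7.25%. The motifs were searched on both strands and may overlap. Slc2a3 had no entry in the table.

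Comparing LPS+8-Br-cAMP directly with unstimulated cells, 5 of 29 genes were at least 2-fold higher (17.2%, where 9.36% of 12793 measured genes were) and 5 at least 2-fold lower (17.2%, where 15.8% of all were). This comparison shares its arrays with those above. The higher genes were Slc2a6 (3.92), Slc16a1 (2.93), Pfkfb3 (1.21), Pfkp (1.20) and Hif1a (1.09), 4 of which act in transport or at the phosphofructokinase step. The lower genes were Slc2a3 (-2.41), Egln3 (-2.07), Pfkfb4 (-1.74), P4ha2 (-1.43) and Pdk1 (-1.25). P4ha1, Hk1 and Hk3, which were higher with LPS and lower with 8-Br-cAMP, ended at -0.60, -0.22 and -0.53.

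Other genes of the hypoxia response did not share one direction. Of 20 measured with LPS+8-Br-cAMP against LPS, 4 were at least 2-fold higher (6.49% of all measured genes were) and 2 lower (5.81% of all), with a median of -0.083. Hmox1, the haem oxygenase, was 5.52-fold lower, at 291 against 1603 with LPS, and Higd1a, a mitochondrial protein gene, differed by -1.10. Ddit4, an inhibitor of mTOR signalling, was 3.59-fold higher, at 2559 against 714, and the transcriptional regulators Mxi1 (1.59) and Bhlhe40 (1.56) and Ndrg1 (1.04) were higher too. With LPS, 2 of 21 were at least 2-fold higher than in unstimulated cells (6.64% of all) and 1 lower (13.0% of all). Nos2, the inducible nitric oxide synthase, was at least 7.01-fold higher, Ccng2 was higher by 1.25 and Ankrd37 lower by 2.22.

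Among the factors and regulators of the pathway, Cited2, which competes with Hif1a for its coactivators, had the widest swing. It read 677 unstimulated, 2924 after LPS and 755 after LPS+8-Br-cAMP, high only with LPS. Its differences were 2.11 and -1.95, and its next probe set gave 2.02 and -2.14. Of 16 genes in this list measured with 8-Br-cAMP, Cited2 was the only one past 2-fold (6.25%). Of all measured genes, 5.81% were at least 2-fold lower and 6.49% at least 2-fold higher. With LPS, 2 of 15 were at least 2-fold higher (6.64% of all genes were), Cited2 and Siah1a (1.44). At least 2-fold lower was 1, Ep300 at -1.14 (13.0% of all genes were).

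In neighbouring pathways the lists were short, and their counts stand beside the shares of all measured genes past 2-fold (6.49% higher and 5.81% lower with 8-Br-cAMP, 6.64% higher and 13.0% lower with LPS). In the tricarboxylic acid cycle 0 of 20 genes passed 2-fold with 8-Br-cAMP (median 0.11). With LPS 17 of the 20 were lower (median -0.43, against -0.21 for all genes) and 1 past 2-fold, Fh1 at -1.20, while Acod1, which makes itaconate, was higher by 5.89. Other glycolysis and pyruvate genes, such as Pkm, had 0 of 14 past 2-fold with 8-Br-cAMP and 1 of 15 with LPS, Pdp1 at -1.03 (-0.16 by its other probe set). Of 10 pentose phosphate genes 8 were lower with 8-Br-cAMP (median -0.35, against 0.049 for all genes, of which 53.2% were higher). The other 2 were at least 2-fold higher, Pgls and Prps1, both at 1.05, and with LPS H6pd was at -1.84. Glycogen genes had 2 of 15 at least 2-fold lower, Stbd1 (-1.14) and Epm2a (-1.12), and with LPS 1 of 15, Phkb at -1.72. Of 5 gluconeogenesis genes Pck2 was at -1.05 with 8-Br-cAMP and 0 of 4 passed 2-fold with LPS.

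Other sugar and monocarboxylate transporters, listed with Bsg and Txnip, which are not transporters, had 0 of 11 past 2-fold with 8-Br-cAMP (6.49% of all genes higher, 5.81% lower). With LPS, 1 of 10 was at least 2-fold higher (6.64% of all genes were), the amino acid carrier Slc16a10 by 1.60. At least 2-fold lower were 3 (13.0% of all genes were), Slc37a4 (-1.39), Slc2a8 and Txnip, a brake on glucose uptake (both -1.20). Of 20 regulators of glucose metabolism, Prkag1, an AMP-activated kinase subunit, was higher by 1.23 with 8-Br-cAMP, and Myc was at least 2.04-fold lower. With LPS the kinase gene Ikbke was higher by 1.98, Prkab1 was at -1.13, and Ppargc1b was at least 3.51-fold lower.

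The sign of a small difference between LPS+8-Br-cAMP and LPS could turn with the scaling. With the signals as deposited it turned for 11 of 28 genes, namely Slc2a1, Slc2a6, Hk2, Pfkfb3, Aldoc, Tpi1, Pgk1, Pdk3, Ldha, Slc16a3 and Hif1a. Ldha also turned under quantile normalization and cyclic loess, and Slc16a3 under median scaling. None of the genes past 2-fold turned under any of the 6 scalings.

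**Figure D5:**
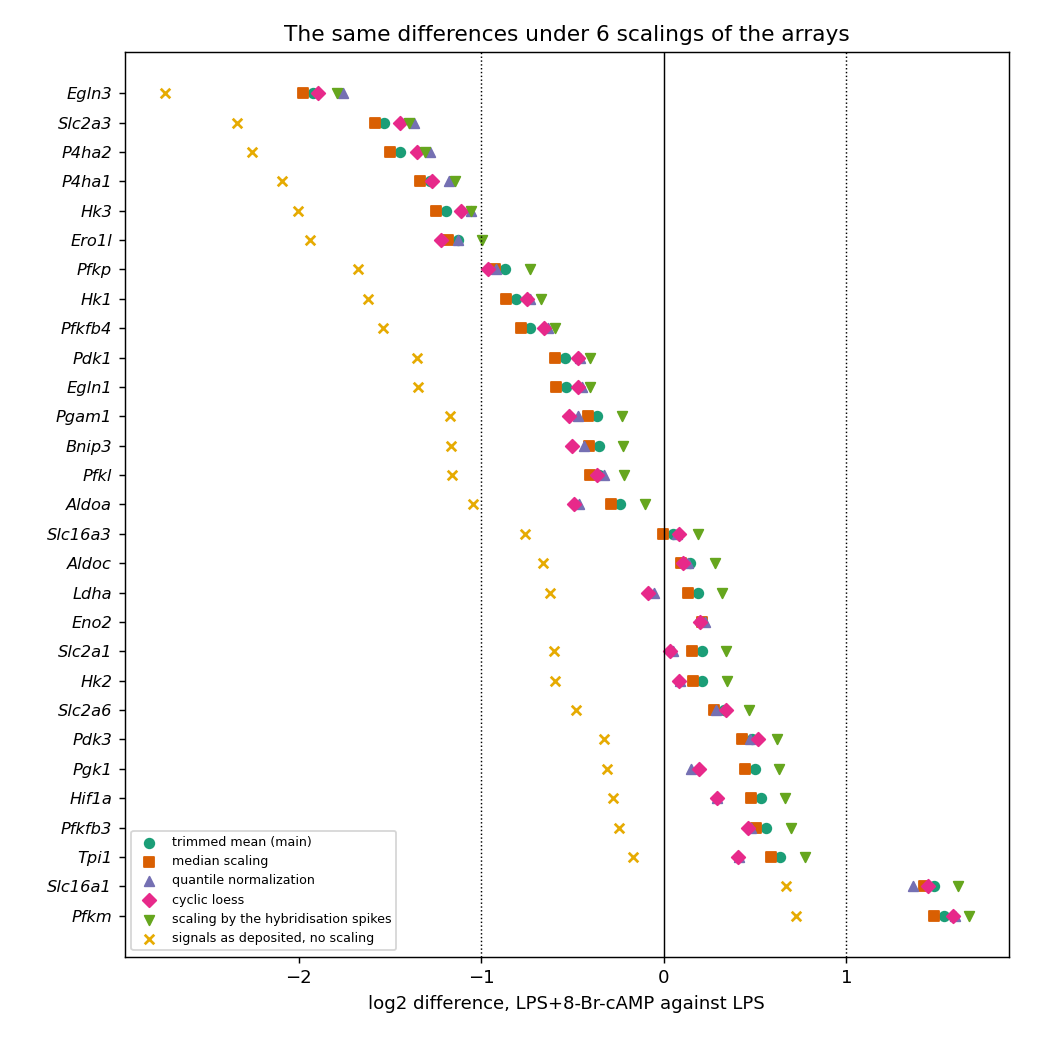
Log2 difference of each gene between LPS+8-Br-cAMP and LPS under 6 scalings of the arrays (one symbol each), ordered by the main value, with 2-fold dotted. Signals as deposited (crosses) shift most genes left and turn the sign of 11 of 28, while the other 5 scalings keep Egln3 between -1.98 and -1.76 and Slc16a1 between 1.36 and 1.61.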

How the data were processed

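The authors deposited 1 intensity per probe set and array, linear, from MAS5 (named in the submitters' processing notes). No version or setting of it is known here. Arrays were scaled to the mean of their 2% trimmed means (factors 0.763 unstimulated, 0.929 LPS, 1.63 LPS+8-Br-cAMP), and signals were set to a floor, the highest array median (32.5), before log2. Of 45101 probe sets, 64 controls were left out, and GEO's platform annotation gave 1 gene for 34945. A gene was measured when above the floor on at least 1 array compared. Counts use 2-fold. Precision is limited by the number of arrays.

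The members and lists were chosen with earlier results of these data known. All members are named, and of each other list up to 4 genes past 2-fold with the largest differences per comparison. The 9 marker lists are described for dendritic, granulocyte and B cells; the other 6 are in the closing section. Promoters are RefSeq's (GRCm38.p6). Steps were tested on simulated data. Alternatives were other scalings (cyclic loess with limma 3.58.1), floors, probe set choices and thresholds.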

Additional observations from a re-analysis of the deposited data

How the results depend on the processing

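For LPS against unstimulated, the median of the members (0.18) was -0.018 under quantile normalization, -0.16 with spike scaling and -0.11 as deposited. The 3 higher members became 8 at 1.5-fold and 1 by the next brightest probe set (17 genes), and the 2 lower became 4 at 1.5-fold and with spike scaling, 1 at the 75th percentile floor, and 0 at 3-fold, under median scaling, quantile normalization and cyclic loess, by the next brightest probe set and with a pseudocount. For LPS+8-Br-cAMP against LPS, the median (-0.24) was -0.37 under cyclic loess, -1.10 as deposited, -0.62 by the next brightest probe set and 0.050 with _at probe sets. The 6 lower became 15 as deposited and 1 at 3-fold. The 2 higher became 1 at the 75th percentile floor and by the mean over probe sets, and 0 at 3-fold, as deposited and by the next brightest probe set. For LPS+8-Br-cAMP against unstimulated, the median (-0.19) was -0.066 under cyclic loess, -0.40 with spike scaling, -1.30 as deposited, -0.29 by the next brightest probe set and 0.15 with _at probe sets. The 5 higher became 10 at 1.5-fold, 2 at 3-fold and as deposited, and 3 under quantile normalization and by the next brightest probe set, and the 5 lower 8 at 1.5-fold, 3 at 3-fold and 15 as deposited.

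Where an alternative tests fewer genes or shifts a whole array, that follows from its construction, and the cause of other changes was not tested. Of the genes' own values under the alternatives, 81 of 887 moved by more than the scatter of 1 probe set, 56 of them with signals as deposited, and no gene past 2-fold changed direction. Over all measured genes, 33.8% of those past 2-fold were higher with LPS than in unstimulated cells, between 15.7% and 48.2% under other scalings, and 52.8% with 8-Br-cAMP than with LPS alone, between 3.13% and 66.4%. No array was left out, since each condition had 1, so each comparison rests on its 2 arrays.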

Other observations

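Markers of other cell types were read on the same arrays. With LPS+8-Br-cAMP against LPS, 5.81% of all measured genes were at least 2-fold lower and 6.49% at least 2-fold higher. Of 3 measured eosinophil markers 2 were at least 2-fold lower (Epx at -1.75, Prg2 at -1.62), and Siglecf was at 0.064. Of 7 mast cell and basophil markers 2 were at least 2-fold lower, Cpa3 (at least 3.93-fold) and Mcpt8 (-1.05). In that list 4 were higher and 3 lower, with a median of 0.10. Macrophage markers went both ways, with Mrc1 at 1.01 and Mertk at -1.65 (9 measured), and stromal markers had 2 of 7 higher and 2 lower. Erythroid markers (4 measured) and T and NK cell markers (4 measured) had 0 past 2-fold.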
